A study of Mus musculus with 6 samples.

Results

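Cilia are built and stocked by a transport system, and 42 genes of that system were followed here in cells sorted from the mouse olfactory epithelium. The reporter of the sort is driven by Krt17, a marker of horizontal basal cells (HBCs), the reserve stem cells of that tissue. The samples also held RNA of other cell types. In control libraries, mature neuron markers summed to 3580 to 6989 FPKM, against 679 to 2786 FPKM for HBC markers. The genes were chosen by name. Those described are every Bbs and Ift gene with a number, Tctn1 to Tctn3, Nphp4, Mks1, Ttc8, Arl3, Arl6, Arl13b, Wdpcp, Lztfl1, Kif3a, Kif3b, Kif3c, Kif17, Kifap3, Rpgr and Rpgrip1l. They filled 43 of the 44519 rows of the expression table, because Bbs2 occupied 2 rows. The TNF group was 3 samples (replicates 1, 3 and 4) from mice that carried Krt17-EGFP, Cyp2g1-rtTA and TRE-TNF and were labelled as given doxycycline for 6 weeks. The control group was 3 samples (replicates 1, 2 and 4) from mice that carried Krt17-EGFP and neither of the other transgenes, labelled as without doxycycline. All 6 samples were GFP-positive cells sorted from olfactory neuroepithelium and sequenced in bulk. The Cyp2g1 promoter, known from sustentacular and gland cells, drives rtTA and through it TNF. Cyp2g1 itself was measured in the sorted samples, at 26.5, 0.221 and 0.533 FPKM in TNF replicates 1, 3 and 4, against 246, 256 and 332 FPKM in control replicates 1, 2 and 4. The transgenes and doxycycline differed together between the groups, and their effects cannot be told apart.

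A cilium grows by intraflagellar transport (IFT): trains of IFT-B and IFT-A particles are carried to the tip by kinesin-2 motors and back to the base by the IFT dynein. The BBSome, a coat-like complex of Bbs proteins, rides on these trains and moves membrane proteins such as receptors out of the cilium. The transition zone at the base gates what enters, and the GTPases Arl13b and Arl3 release lipid-anchored cargo inside. Olfactory sensory neurons hold their odorant receptors and signalling enzymes in long cilia, respiratory cells carry motile cilia, and HBCs bear a primary cilium. Loss of smell is a known feature of Bardet-Biedl syndrome, which is caused by mutations in BBS genes.

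Transcripts of much of this transport system were at a lower level in sorted TNF samples than in sorted control samples. Of the 43 rows, 25 (58.1%) fell in TNF libraries at an adjusted p below 0.05 (limma on log2(FPKM + 1), adjusted over 15037 tested rows), and 0 rose. Over all rows tested, 27.2% fell and 10.9% rose, and 38.0% changed in either direction. Without adjustment, 30 of the 43 were below 0.05 in the lower direction and 0 in the higher one. The median log2 change was −1.02 over the 43 rows, against −0.22 over all tested rows. The genes that fell stood at 16.7% to 69.8% of the control mean, and 21 of them (48.8% of the 43, against 20.2% of all rows) were at least 2-fold lower. The 18 others ranged from 30.6% to 118% of the control mean. All 3 TNF libraries lay below all 3 control libraries in 31 rows (36.2% of all rows did so) and above them in 1, Tctn1 (16.8% of all rows).

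Every row had at least 1 FPKM (fragments scaled to transcript length and library total) in at least 3 libraries and so entered the fit. Bbs10 did so through its control libraries alone, so its groups had to be apart. It is included in the counts of rows that fell. By role, 7 of 8 rows for BBSome subunits fell, 3 of 5 for BBSome assembly and control, 7 of 11 for IFT-B, 1 of 3 for IFT-A, 4 of 5 for kinesin-2 motors, 2 of 9 for the transition zone and base and 1 of 2 for cilium GTPases. These small counts are to be read against the 27.2% of all rows that fell. The shares for the transition zone and base and for IFT-A were near it. The median log2 change ran from −1.64 for kinesin-2 motors and −1.13 for BBSome subunits to −0.56 for the 3 IFT-A rows of the name rule. In each of the 6 fits that left out 1 library, the same 17 rows were among those called. Single fits of that kind called 18 to 27 cilium rows lower, beside 11.8% to 33.4% of all rows. The share of all rows called in all 6 was not counted. Scaling shifted the whole table: its median log2 change, −0.22 with values as deposited, became 0.01 with median-of-ratios scaling, 0.05 with quantile normalization and −1.48 with libraries scaled to their HBC markers, where 63.9% of all rows fell and 1.54% rose. The cilium rows that fell numbered 19, 21 and 40 under these scalings, beside 20.8%, 19.7% and 63.9% of all rows, and their median minus that of all rows was −0.79 to −0.77, against −0.80 as deposited. Upper-quartile scaling gave 19 as well; the calls lost under it and under median-of-ratios scaling were those of Ift43, Ift20, Ift46, Ift22, Tctn3 and the higher Bbs2 row. Without TNF replicate 1 and control replicate 4, the libraries that stood apart in cell type markers, 28 of 41 tested rows fell and 1, Rpgr, rose, beside 32.7% and 19.8% of all rows in that fit.

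**Figure D1:**
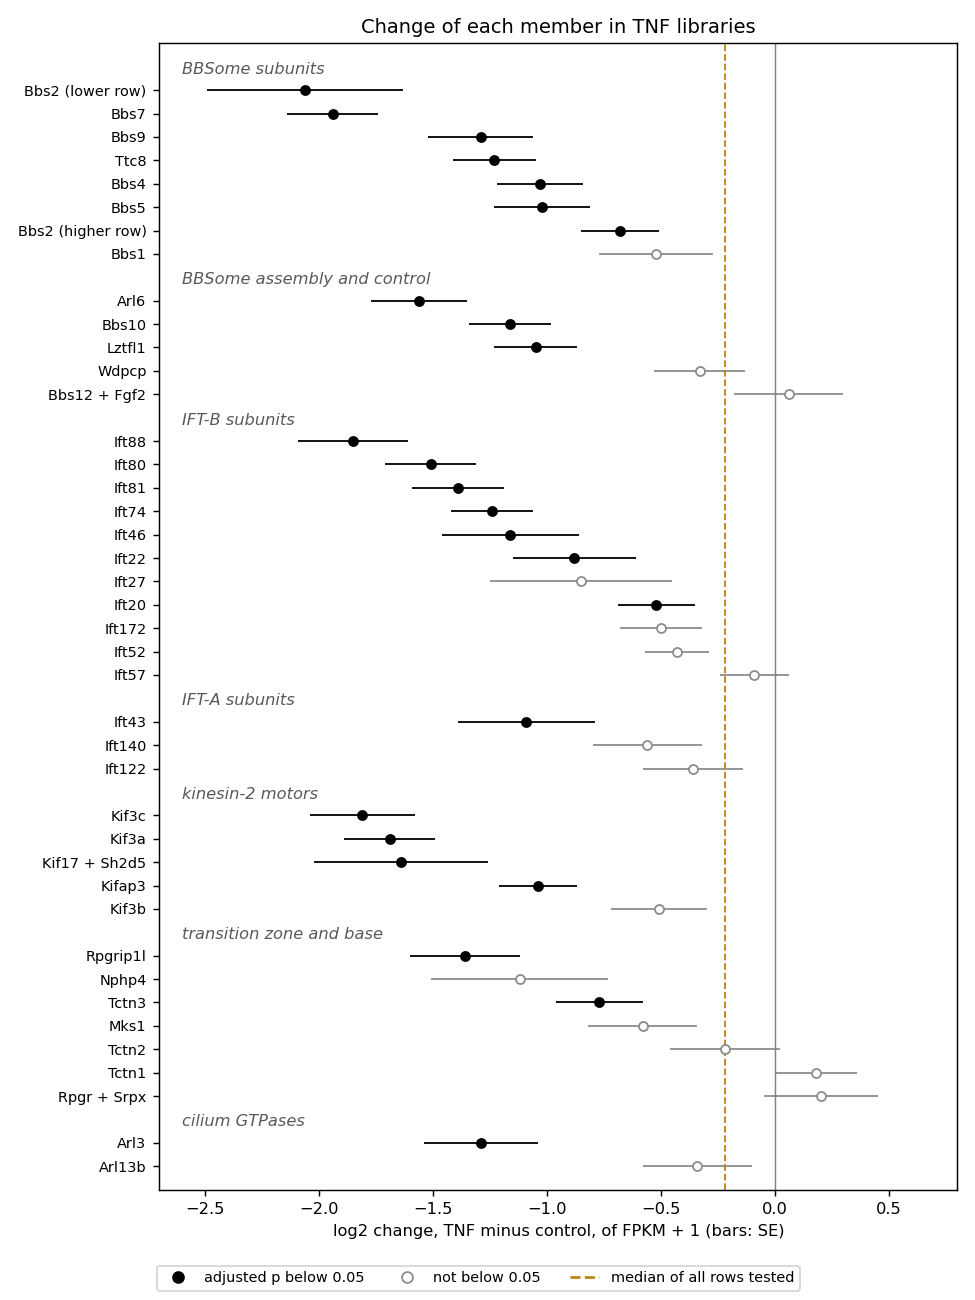
Log2 change of 41 rows, TNF minus control, on the log2(FPKM + 1) scale with its standard error (3 libraries per group); filled points have an adjusted p below 0.05, and the dashed line marks the median of all tested rows, −0.22. The 25 filled points all lie between −2.06 and −0.52, most transition zone genes are open, and 3 points lie above 0, all of them below 0 when libraries are scaled to their HBC markers.

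Summed FPKM ran from 688190 to 838417 in the 6 libraries, and rows at 1 FPKM or more numbered 13242 to 13542 in TNF libraries, against 15014 to 15202 in control libraries. Fragment totals are not in the table; low values put the worth of 1 fragment between 0.877 and 1.08 times that in control replicate 1. Library correlations were 0.909 or more within the TNF group, 0.922 or more within the control group and 0.692 to 0.871 between groups. None of the 7 HBC marker rows was at 0, and their summed level was 4358 to 7087 FPKM in TNF libraries, against 679 to 2786 FPKM in control libraries. Most of that sum was 1 merged row, Krt14 with Krt17. It held 5650, 3790 and 3640 FPKM in TNF replicates 1, 3 and 4, against 1770, 2260 and 402 FPKM in control replicates 1, 2 and 4. That row did not pass (limma, adjusted p = 0.0741), and 3 of the 7 rows rose.

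Markers of other ciliated cells moved with the groups, with larger median changes. All 14 mature olfactory neuron markers fell (median log2 change −3.91), with sums of 1217, 57.3 and 47.0 FPKM in TNF replicates 1, 3 and 4, against 3819, 3580 and 6989 FPKM in control replicates 1, 2 and 4. All 9 tested immature neuron markers fell (median −4.89), with sums of 134 to 180.2 FPKM in TNF libraries, against 1850 to 3530 FPKM in control libraries. Of 17 tested motile ciliated cell markers, 13 fell and 1 rose (median −2.19), with sums of 166 to 239 FPKM in TNF libraries, against 484 to 1031 FPKM in control libraries. Nhlh2 of the immature neuron list and Dnah9 and Sntn of the motile cell list entered the fit through their control libraries alone and so had to differ between the groups. No neuron marker was at 0 in any library, and of the motile cell markers only Spag6l was, in control replicate 2. In bulk RNA, fewer cells of a type and less RNA per cell cannot be told apart, and the part of these cell types in the cilium gene results was not tested.

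The TNF libraries differed among themselves in several marker lists. Relative to the mean of TNF replicates 3 and 4, TNF replicate 1 held 23.3 times the summed mature neuron markers, 2.54 times the macrophage markers, 1.59 times the HBC markers, 0.0322 times the fibroblast markers and 0.0101 times the endothelial markers. Its sum over the 43 cilium rows was 1.19 times theirs. The summed cilium rows stood at 56.9% of the control mean in TNF replicate 1 and at 47.9% in TNF replicates 3 and 4, while mature neuron markers stood at 25.4% and 1.09%. For immature neuron markers the same shares were 6.86% and 5.62%, and for motile cell markers 32.4% and 23.7%. Fibroblast markers stood at 11.3% and 350%, and endothelial markers at 6.98% and 694%. Among controls, the 43 cilium rows summed to 1997, 1638 and 2447 FPKM in control replicates 1, 2 and 4. Control replicate 4 also had the highest sums of neuron and motile cell markers, and control replicate 2 the lowest. Whether these sums go together was not tested.

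**Figure D2:**
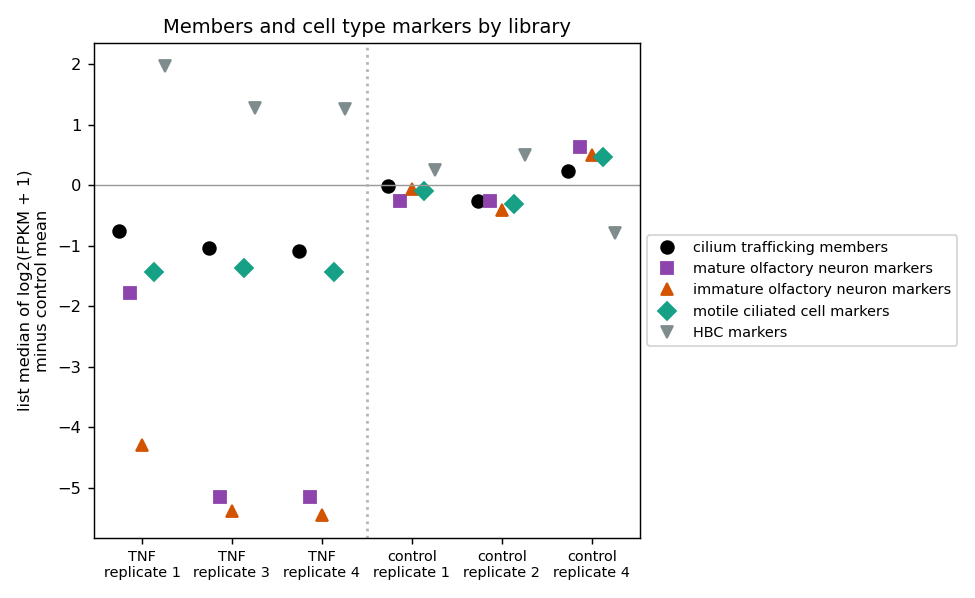
Median over each list of log2(FPKM + 1) minus the gene's control mean, in each of the 6 libraries; points for 1 library are set side by side. The 43 cilium rows sit at −0.76, −1.04 and −1.08 in TNF replicates 1, 3 and 4, against −0.01, −0.26 and 0.24 in control replicates 1, 2 and 4, while the mature neuron markers of TNF replicate 1 (−1.78) stand apart from those of TNF replicates 3 and 4 (−5.15 each).

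Some promoters of these genes hold a sequence feature that the choice by name did not use. RFX factors, which drive cilium genes in many animals, bind the X-box, a pair of inverted repeats. The pair GTNNCC, 0 to 3 further bases and GGNNAC, which reads the same on both strands, was searched for in RefSeq promoters (GRCm38.p6, 250 bases before to 50 after the start; 41 entries for 37 of the genes, with Ift122, Ift80 and Ift81 among those unmatched). It occurred in 11 of the 41 (26.8%), against 1267 of all 32851 RefSeq promoters searched (3.86%). That set, of 27025 genes, was not limited to genes that passed the expression filter, as the cilium genes did. It occurred in 5 of 23 promoters of genes that fell (21.7%) and in 6 of 18 of the others (33.3%). Promoters are shown 5′ to 3′ on the gene's strand, with the pair and its spacer in capitals. The first 3 are of genes that fell and the last 2 of genes that did not pass the test. Whether the pair and the change go together was not tested.
Bbs7 promoter, chr3:36613467-36613540, minus strand, from 121 bases before the start: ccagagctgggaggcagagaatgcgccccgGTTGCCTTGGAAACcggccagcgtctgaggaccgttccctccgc
Lztfl1 promoter, chr9:123717745-123717819, minus strand, from 164 bases before the start: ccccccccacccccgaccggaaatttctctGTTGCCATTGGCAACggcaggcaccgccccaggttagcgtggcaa
Tctn3 promoter, chr19:40612329-40612401, minus strand, from 140 bases before the start: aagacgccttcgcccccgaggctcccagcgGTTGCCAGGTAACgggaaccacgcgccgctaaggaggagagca
Ift57 promoter, chr16:49699177-49699250, plus strand, from 87 bases before the start: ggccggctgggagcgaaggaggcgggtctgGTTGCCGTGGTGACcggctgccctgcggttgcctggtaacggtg
Tctn2 promoter, chr5:124598657-124598730, plus strand, from 62 bases before the start: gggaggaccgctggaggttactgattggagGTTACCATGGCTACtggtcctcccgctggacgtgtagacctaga
The distance is that of the first capital. The stretch shown for Ift57 holds a second pair near its end, in lower case. A match describes letters and not a bound factor.

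All BBSome subunits but Bbs1 fell in TNF libraries. Values below are FPKM in TNF replicates 1, 3 and 4 and then in control replicates 1, 2 and 4. Bbs7 (chr3:36573142-36613477, minus strand, GENCODE M21 on GRCm38), which joins Bbs2 and Bbs9 in the core from which the complex assembles, had 6.02, 5.05 and 5.49 FPKM in TNF libraries, against 25.2, 19.9 and 27.8 FPKM in control libraries. Each TNF library was far below the lowest control, and the mean was 5.52 ± 0.489 in TNF and 24.3 ± 4.03 in control libraries (SD, n = 3 each), a log2 change of −1.94 ± 0.20 (SE; limma, adjusted p = 0.000811). Ttc8, also known as Bbs8, a subunit made of helical repeats, had 12.9, 14.6 and 13.0 FPKM in TNF libraries, against 35.9, 27.3 and 36.9 FPKM in control libraries (−1.23 ± 0.18; limma, adjusted p = 0.00252). Bbs9 had 17.5, 14.7 and 13.7 FPKM in TNF libraries, against 36.3, 30.8 and 52.4 FPKM in control libraries (−1.29 ± 0.23; limma, adjusted p = 0.00553). In both genes the groups were apart, and control replicate 4 was the highest.

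Bbs4, which helps bind cargo, was nearly equal among TNF libraries, at 15.9, 15.8 and 15.7 FPKM, against 31.5, 27.8 and 42.4 FPKM in control libraries (−1.03 ± 0.19; limma, adjusted p = 0.00655). Bbs5, a lipid-binding subunit, had 19.8, 21.5 and 18.5 FPKM in TNF libraries, against 41.5, 32.4 and 52.5 FPKM in control libraries (−1.02 ± 0.21; limma, adjusted p = 0.00908). Both therefore stood near 47% of control by mean (46.6% and 47.2%), with no overlap between groups. Bbs2 lay in 2 rows at 1 locus, and the sources used here do not say how reads were shared between them. Its higher row had 19.7, 14.8 and 15.8 FPKM in TNF libraries, against 28.4, 27.3 and 26.1 FPKM in control libraries (−0.68 ± 0.17; limma, adjusted p = 0.0197). Its lower row had 2.91, 1.65 and 0.619 FPKM in TNF libraries, against 8.88, 6.25 and 15.9 FPKM in control libraries (−2.06 ± 0.43; limma, adjusted p = 0.0106). Both rows were lower in every TNF library, but the higher row lost its call without control replicate 1, control replicate 2, TNF replicate 3 or TNF replicate 4. Bbs1, the subunit that meets Arl6 at the membrane, was the scarcest, at 2.05, 1.89 and 1.26 FPKM in TNF libraries, against 2.19, 2.54 and 4.19 FPKM in control libraries; its groups did not overlap, but the difference missed the threshold (58.3% of control; −0.52 ± 0.25; limma, adjusted p = 0.156).

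Among genes that assemble and steer the BBSome, 3 fell. Arl6 (Bbs3), the GTPase that brings the complex to membranes, was the most abundant of them and had 32.7, 28.6 and 31.5 FPKM in TNF libraries, against 92.7, 72.8 and 119 FPKM in control libraries. Its mean in TNF libraries was 32.5% of that in control libraries, and the spread of the TNF libraries was small beside the gap (30.9 ± 2.09 in TNF and 94.9 ± 23.4 in control libraries, SD, n = 3 each; log2 change −1.56 ± 0.21; limma, adjusted p = 0.00183). Bbs10, a chaperonin-like protein needed to fold the core, had 0.991, 0.889 and 0.772 FPKM in TNF libraries, against 3.84, 2.93 and 2.89 FPKM in control libraries (−1.16 ± 0.18; limma, adjusted p = 0.00337). At these low levels the added 1 FPKM shrinks the log2 change, and the ratio of means was 27.4%. Because Bbs10 entered the fit through its control libraries alone, its groups had to differ, and its p-value adds no support. Lztfl1, which limits BBSome entry into cilia, had 32.1, 27.1 and 25.9 FPKM in TNF libraries, against 69.2, 50.9 and 59.5 FPKM in control libraries (−1.05 ± 0.18; limma, adjusted p = 0.00438). Wdpcp, a planar polarity effector also tied to Bardet-Biedl syndrome, stood at 77.7% of control with overlapping groups (limma, adjusted p = 0.25). The chaperonin-like Bbs12 shared a merged row with Fgf2 and stood at 105% of control (limma, adjusted p = 0.869). Arl6, Lztfl1 and Wdpcp have exons that overlap a gene on the opposite strand, as do 7 other rows, and no source used here says whether counting used strand.

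**Figure D3:**
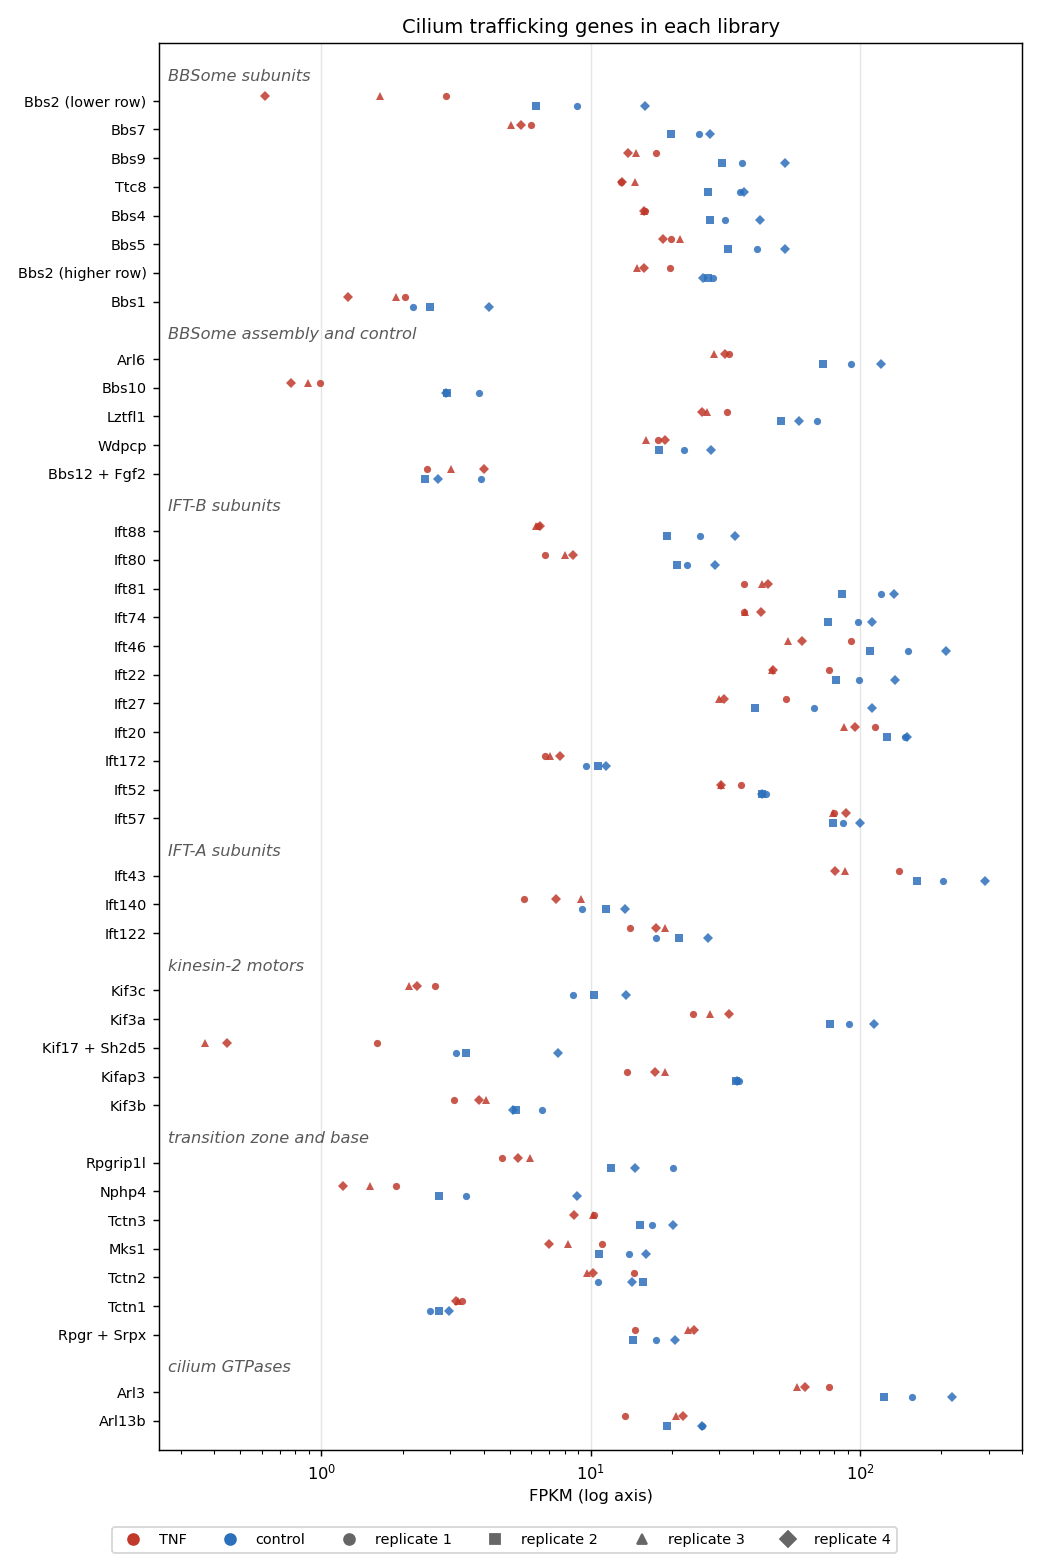
FPKM of 41 rows in each library, on a log axis, by role, with TNF libraries in red above control libraries in blue and marker shapes giving replicate numbers. The red and blue points are apart in 32 rows, with red lower in 31, and overlap in 9, among them Ift57, Tctn2 and Arl13b.

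IFT-B, the particle that carries building blocks toward the tip, ranged from 24.2% to 93.2% of control. Ift88, a core subunit whose hypomorphic mouse mutant has short cilia and polycystic kidneys, had 6.35, 6.27 and 6.47 FPKM in TNF libraries, against 25.5, 19.1 and 34.3 FPKM in control libraries. The TNF libraries hardly varied (6.36 ± 0.103, against 26.3 ± 7.62 in control libraries, SD, n = 3 each), and the log2 change was −1.85 ± 0.24 (limma, adjusted p = 0.00167). Ift88 overlaps exons of Ift88os on the opposite strand. Ift80, a subunit of the peripheral part of the particle, had 6.76, 8.03 and 8.57 FPKM in TNF libraries, against 22.8, 20.8 and 29.0 FPKM in control libraries (−1.51 ± 0.20; limma, adjusted p = 0.0018). The tubulin-binding partners Ift81 and Ift74 fell to 37.1% and 41.2% of control. Ift81 had 37.1, 43.3 and 45.3 FPKM in TNF libraries, against 119, 85.7 and 134 FPKM in control libraries (−1.39 ± 0.20; limma, adjusted p = 0.00268). Ift74 had 36.9, 37.5 and 42.8 FPKM in TNF libraries, against 97.9, 75.8 and 111 FPKM in control libraries (−1.24 ± 0.18; limma, adjusted p = 0.00269). In these 3 genes the lowest library was TNF replicate 1, the TNF library richest in mature neuron markers.

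For the other IFT-B genes the call hung on single libraries or was not made. Ift20, which also works at the Golgi in sending membrane proteins to the cilium, was the most abundant by mean FPKM, with 113, 87.0 and 95.6 FPKM in TNF libraries, against 147, 126 and 149 FPKM in control libraries (69.8% of control; −0.52 ± 0.17; limma, adjusted p = 0.0477). Ift46 had 92.1, 54.0 and 61.0 FPKM in TNF libraries, against 151, 109 and 209 FPKM in control libraries (−1.16 ± 0.30; limma, adjusted p = 0.0231). The Rab-like Ift22 had 76.3, 47.2 and 47.5 FPKM in TNF libraries, against 98.7, 81.5 and 135 FPKM in control libraries (−0.88 ± 0.27; limma, adjusted p = 0.0416). These 3 had no overlap between groups, yet the call ended for Ift20 and Ift22 without any 1 library other than TNF replicate 1, and for Ift46 when TNF replicate 3, TNF replicate 4, control replicate 1 or control replicate 4 was left out. The core subunit Ift52 had 36.1, 30.3 and 30.3 FPKM in TNF libraries, against 44.5, 43.3 and 43.3 FPKM in control libraries, and missed the threshold (limma, adjusted p = 0.0547) but passed it without TNF replicate 1. Ift172 stood at 67.8% of control (limma, adjusted p = 0.0678), and Ift27, the Rab-like subunit linked to BBSome exit, at 52.3% with control values spread from 40.6 to 111 FPKM (limma, adjusted p = 0.137). Ift57 had 80.0, 79.4 and 88.5 FPKM in TNF libraries, against 86.3 and 79.2 FPKM in control replicates 1 and 2 and more in control replicate 4. Its groups overlapped, with means of 82.7 ± 5.09 in TNF and 88.6 ± 10.8 in control libraries (SD, n = 3 each; 93.2% of control; −0.09 ± 0.15; limma, adjusted p = 0.666), and the difference was positive under the other scalings except the one to HBC markers.

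IFT-A, which returns material to the base and admits membrane proteins, had 1 gene that fell of the 3 in the name rule, beside 27.2% of all rows. Ift43 was the most abundant of all 43 rows by mean, with 139, 87.9 and 80.3 FPKM in TNF libraries, against 202, 162 and 291 FPKM in control libraries. TNF replicate 1 lay closest to the controls but below all of them, and the means were 102 ± 31.7 in TNF and 218 ± 65.9 in control libraries (SD, n = 3 each; log2 change −1.09 ± 0.30; limma, adjusted p = 0.0276). That call, too, ended when TNF replicate 3, TNF replicate 4, control replicate 1 or control replicate 4 was left out. The larger subunits Ift140 and Ift122 stood at 65.2% and 76.3% of control and did not pass (limma, adjusted p = 0.112 and 0.244). Other IFT-A genes lie outside the name rule. Of these, Wdr19 and Wdr35 fell (log2 change −1.44 and −1.17, limma, adjusted p = 0.0063 and 0.0028). Ttc21b did not pass (−0.25, limma, adjusted p = 0.374).

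The kinesin-2 motors fell most by median. Kif3a, the motor subunit common to both heterotrimeric forms, had 23.9, 27.7 and 32.5 FPKM in TNF libraries, against 91.1, 76.9 and 112 FPKM in control libraries. The gap between groups exceeded the spread within either (28.1 ± 4.30 in TNF and 93.4 ± 17.7 in control libraries, SD, n = 3 each; log2 change −1.69 ± 0.20; limma, adjusted p = 0.00128). Kif3c, a partner of Kif3a known from neurons, had 2.63, 2.12 and 2.26 FPKM in TNF libraries, against 8.61, 10.3 and 13.5 FPKM in control libraries (−1.81 ± 0.23; limma, adjusted p = 0.00159). Kifap3, which ties the motor to its cargo, had 13.6, 18.9 and 17.3 FPKM in TNF libraries, against a tight 35.4, 34.6 and 34.9 FPKM in control libraries (−1.04 ± 0.17; limma, adjusted p = 0.00405). Kif3b, the usual partner of Kif3a, was at 3.11, 4.08 and 3.86 FPKM in TNF libraries, against 6.60, 5.27 and 5.13 FPKM in control libraries, and did not pass (65.1% of control; −0.51 ± 0.21; limma, adjusted p = 0.0967). In these 4 genes the groups did not overlap, and for Kif3a, Kifap3 and Kif3b TNF replicate 1 was the lowest library. The homodimeric Kif17, in a row merged with Sh2d5 so that the genes cannot be told apart, ran the other way within the TNF group, with 1.61, 0.37 and 0.447 FPKM in TNF libraries, against 3.15, 3.44 and 7.54 FPKM in control libraries (−1.64 ± 0.38; limma, adjusted p = 0.0152). Its call ended without TNF replicate 3 or TNF replicate 4.

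At the transition zone and base, 2 of 9 rows fell, beside 27.2% of all rows, and 3 had a positive difference. Rpgrip1l, a scaffold of the gate, had 4.70, 5.94 and 5.38 FPKM in TNF libraries, against 20.2, 11.9 and 14.6 FPKM in control libraries, with every TNF library under the lowest control (34.3% of control; −1.36 ± 0.24; limma, adjusted p = 0.00535). The tectonics, membrane-associated proteins of the gate, had unlike values. Tctn3 had 10.3, 10.2 and 8.68 FPKM in TNF libraries, against 16.9, 15.2 and 20.1 FPKM in control libraries (−0.77 ± 0.19; limma, adjusted p = 0.0173), a call that ended when TNF replicate 3, TNF replicate 4 or control replicate 1 was left out. Tctn2 stood at 85.3% of control with overlapping groups (limma, adjusted p = 0.508). Tctn1 was at 3.33, 3.21 and 3.17 FPKM in TNF libraries, against 2.52, 2.73 and 2.97 FPKM in control libraries, above all controls but short of the threshold (118% of control; limma, adjusted p = 0.459). Whether the tectonic genes differ in their change was not tested.

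The other genes of the base that are given here were as mixed. Nphp4 was at 30.6% of control but varied among controls (2.74 to 8.92 FPKM) and did not pass (−1.12 ± 0.39; limma, adjusted p = 0.0603). The B9-domain protein Mks1 was at 64.4% of control (limma, adjusted p = 0.101) and passed without TNF replicate 1. Rpgr, merged with Srpx, had 14.6, 22.9 and 24.1 FPKM in TNF libraries, against 17.5, 14.3 and 20.6 FPKM in control libraries (118% of control; limma, adjusted p = 0.554).

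Of the GTPases, Arl3, which frees lipid-anchored proteins from their carriers, had 76.6, 58.3 and 62.5 FPKM in TNF libraries, against 155, 122 and 220 FPKM in control libraries. The groups were well apart (39.7% of control; −1.29 ± 0.25; limma, adjusted p = 0.00719). Arl13b, which activates Arl3 in the cilium, had 13.4, 20.7 and 22.0 FPKM in TNF libraries, against 25.8, 19.1 and 25.9 FPKM in control libraries; TNF replicates 3 and 4 lay within the control range (79.2% of control; limma, adjusted p = 0.314).

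Not all rows measure their gene cleanly. In the 29 rows with no merged name, no exon overlap with another annotated gene and no duplicate, 17 fell and 0 rose (0 also at an unadjusted p below 0.05; limma), with the same median log2 change of −1.02. Of the 4 merged rows, 1 fell, beside 27.2% of all rows.

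Among genes of the same pathways outside the name rule, 42 of 55 tested had a negative difference, as did 61.5% of all tested rows. Of the 55, 23 fell and 3 rose (median log2 change −0.58), beside 27.2% and 10.9% of all rows, against which the small lists that follow are also to be read. Of other IFT and IFT dynein genes, 7 of 14 fell. Dync2h1, the heavy chain of the retrograde motor, had 3.30, 5.92 and 6.35 FPKM in TNF libraries, against 23.7, 20.4 and 18.8 FPKM in control libraries (−1.86 ± 0.26; limma, adjusted p = 0.00221), and the IFT-A gene Wdr35 had a log2 change of −1.17 ± 0.18 (limma, adjusted p = 0.0028). Of other BBSome genes, 2 of 4 fell: the small subunit Bbip1 had 19.6, 13.7 and 14.4 FPKM in TNF libraries, against 51.1, 39.3 and 57.5 FPKM in control libraries (−1.57 ± 0.22; limma, adjusted p = 0.00209), and Rab3ip (Rabin8), the exchange factor for Rab8, changed by −0.95 ± 0.16 (limma, adjusted p = 0.00482).

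Other transition zone genes fell in 7 of 15 tested. Ahi1, linked to Joubert syndrome, had 4.03, 5.12 and 5.00 FPKM in TNF libraries, against 20.9, 16.7 and 20.1 FPKM in control libraries (−1.82 ± 0.19; limma, adjusted p = 0.000925), and Tmem17, a membrane protein of the gate, changed by −1.60 ± 0.22 (limma, adjusted p = 0.00203). Of genes for lipid-anchored cargo and tubby proteins, 4 of 10 fell. Pde6d, a carrier that Arl3 unloads, had 125, 61.1 and 69.3 FPKM in TNF libraries, against 345, 260 and 579 FPKM in control libraries (−2.19 ± 0.38; limma, adjusted p = 0.00504). Tub, the tubby protein, known from neurons, had 0.651, 0.186 and 0.0986 FPKM in TNF libraries, against 9.44, 9.90 and 9.58 FPKM in control libraries (−3.04 ± 0.22; limma, adjusted p = 0.000397). Tub, like Rfx4 among the transcription factors, entered the fit through its control libraries alone, and a gene that enters so had to differ between the groups.

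The cilium transcription factors split. Of 7 tested, 3 fell and 1 rose. Rfx3, an X-box factor, had 1.14, 1.30 and 1.06 FPKM in TNF libraries, against 11.9, 9.29 and 5.37 FPKM in control libraries (−2.13 ± 0.29; limma, adjusted p = 0.00209). Foxj1, the factor that switches on motile cilium genes, went the other way, with 81.4, 62.0 and 50.9 FPKM in TNF libraries, against 11.7, 12.4 and 25.2 FPKM in control libraries (1.98 ± 0.33; limma, adjusted p = 0.00416). Foxj1 was also the marker of motile ciliated cells that rose while 13 others of that list fell. Hedgehog signalling runs through the primary cilium in mammals. Of its 5 tested genes 0 fell (0 at an unadjusted p below 0.05 as well; limma) and 2 rose. The receptor-like transducer Smo averaged 14.9 ± 4.20 FPKM in TNF libraries and 5.37 ± 1.84 FPKM in control libraries (SD, n = 3 each; log2 change 1.33 ± 0.33; limma, adjusted p = 0.0188), and the Gli inhibitor Sufu had 8.53, 14.7 and 16.7 FPKM in TNF libraries, against 4.55, 5.93 and 5.38 FPKM in control libraries (1.14 ± 0.28; limma, adjusted p = 0.0187). In both genes the groups were apart and TNF replicate 1 was the lowest TNF library. With libraries scaled to their HBC markers none of the 3 passed: Foxj1 changed by 0.58, Smo by 0.07 and Sufu by −0.13 on the log2 scale (limma, adjusted p = 0.394, 0.914 and 0.845). The call for Smo ended when TNF replicate 3, TNF replicate 4 or control replicate 1 was left out, and that for Sufu when any of these or control replicate 4 was; Foxj1 kept its call in all 6 such fits, and 1 gene of the lists rose in the fits that lost Smo. In those fits 5.41% to 6.35% of all rows rose. The genes of the lists that fell numbered 14 of 53 tested without control replicate 1 (11.8% of all rows). They numbered 15 of 54 without TNF replicate 4 (19.7% of all rows).

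**Figure D4:**
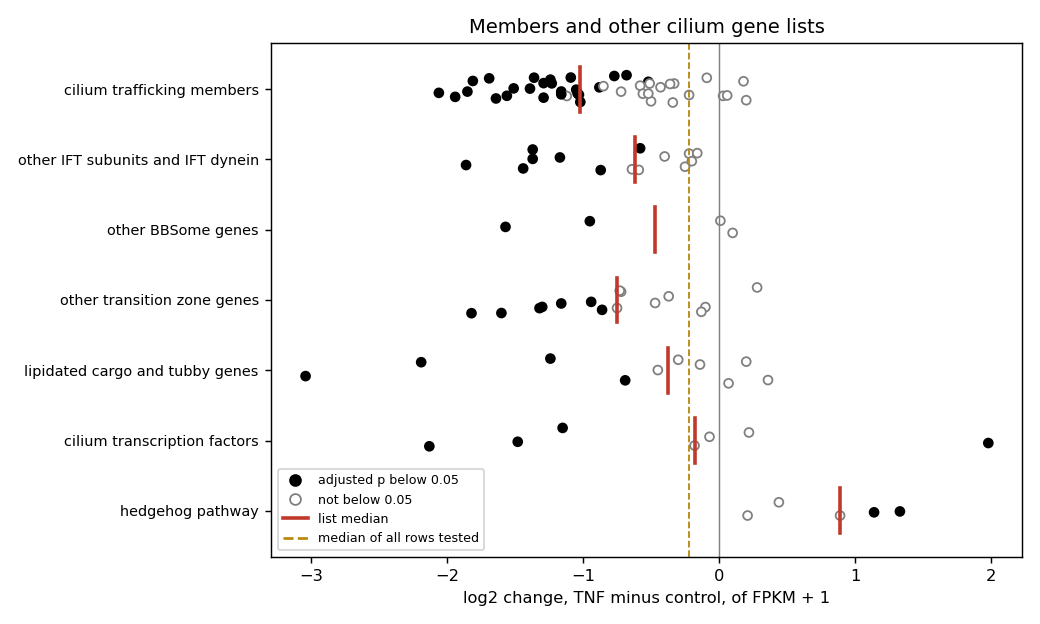
Log2 change, TNF minus control, of the 43 rows and of 6 lists of other cilium genes, 1 point per gene, filled where the adjusted p is below 0.05; red bars are list medians and the dashed line is the median of all tested rows, −0.22. The 43 rows have the lowest median, −1.02, Foxj1 lies alone at the right of the transcription factors, and the 5 hedgehog genes lie above 0 (Sufu below 0 with HBC marker scaling).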

How the data were processed

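The authors deposited 1 table with an FPKM value per row and library; it is titled as raw counts, but 99.98% of values above 0 were not whole (tolerance 1e-06), so no count model was used. Per the labels' protocols, RNA of sorted cells with a RIN above 7 was used, and a SMARTer v4 kit amplified 5 ng of it for Nextera libraries. The submitters' processing notes name mm10, Cuffdiff 2.2.1, TopHat2 2.1.1, FastQC 0.10.1 and bcl2fastq; what each did, the annotation and strand handling were not given in the sources. Whether a sample is 1 animal is not stated in the labels; p-values therefore cover only the spread between samples, which may be technical.

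Genes were matched by name (2 of the 43 rows are in every count but not reported here by name), including names within merged rows; positions are GENCODE M21, counted from 1. limma 3.58.1 (R 4.3.3, with intensity trend) was fitted to log2(FPKM + 1) on the 15037 rows that reached 1 FPKM in 3 or more libraries, all 6 libraries and no covariate, with Benjamini-Hochberg adjustment over all of them and a threshold of 0.05; it was tested on simulated data. A fold change on this scale understates the change of low genes. Fragment totals are unknown, so no counting intervals are given. Values per library are given, in each role, for up to 4 genes that passed with the smallest p and for the most abundant; of other lists, for up to 2 genes; further genes were chosen after their values were seen. The genes and all lists were chosen with earlier results of these data known. Alternatives were another pseudocount, other filters, scalings and thresholds, libraries left out and a replicate block. Samples of TNF and control replicates 1, and of replicates 4, did not deviate together, which cannot exclude a shared sort or batch. Other marker lists were also counted: of globose basal cell markers 1 of 6 tested fell and 1 rose, of sustentacular and gland cell markers 3 of 9 fell and 2 rose, of macrophage markers 5 of 9 fell, of HBC markers 3 of 7 rose, and of 5 fibroblast and 3 endothelial markers 0 passed (limma; 0 also at an unadjusted p below 0.05). Over all rows, 27.2% fell and 10.9% rose. In summed fibroblast and endothelial markers, TNF replicate 1 lay below the control mean and TNF replicates 3 and 4 above it. Of the macrophage markers that fell, Adgre1 and Mrc1 entered the fit through their control libraries alone and so had to differ between the groups. Krt17, an HBC marker, also drives the reporter used for the sort. Shh was listed at 0 throughout.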

Additional observations from a re-analysis of the deposited data

How the results depend on the processing

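Of the values of single cilium rows under alternatives, 620 kept their direction and side of the threshold, 72 lost the call, 21 gained it and 14 changed sign. The count of rows that fell, 25, was 18 to 27 with 1 library left out (11.8% to 33.4% of all rows fell in those fits), 12 with a replicate block (14.9% of all rows) and 40 with libraries scaled to their HBC markers (63.9% of all rows); the number that rose, 0, was 1 without control replicate 4 and TNF replicate 1 together (Rpgr) and 1 under quantile normalization (Tctn1). Replicate numbers 1 and 4 are shared by the groups, and deviations of same-numbered samples correlated at −0.0638 and −0.0874. That check rests on these pairs alone, and libraries within a group differed in cell type markers. It cannot exclude a shared sort or batch. The 12 rows called with the block were Arl6, Bbs7, Ttc8, Bbs9, the lower Bbs2 row, Ift88, Ift80, Ift81, Ift74, Arl3, Kif3a and Kif3c. They were called in every alternative fit at an adjusted p below 0.05. At a threshold of 0.01 the lower Bbs2 row was not called (limma, adjusted p = 0.0106). The block costs residual degrees of freedom. The median log2 change, −1.02, was −1.10 to −0.78 with 1 library left out, −0.78 with median-of-ratios scaling, −2.26 with HBC marker scaling and −0.73 under quantile normalization. Other cilium genes that fell, 23 of 55 tested, numbered 14 to 25 with 1 library left out (11.8% to 33.4% of all rows). The block gave 9 of 55 (14.9% of all rows), HBC marker scaling 43 of 55 (63.9%) and an adjusted p below 0.01 gave 15 of 55 (16.7%). Those that rose, 3 (10.9% of all rows), numbered 1 to 4 with 1 library left out (5.41% to 13.7%). They numbered 1 with the block (4.95%), 0 with HBC marker scaling (1.54%) and 1 at an adjusted p below 0.01 (5.23%). Median-of-ratios scaling gave 5 of 55 (15.7% of all rows) and quantile normalization 7 of 56 (18.2%). The log2 changes that reversed were those of Bbs12 (−0.08 to 0.22 with 1 library left out: −0.05 without control replicate 2, −0.08 without TNF replicate 4, −0.03 with the block, −1.01 with HBC marker scaling), Ift57 (0.02 without control replicate 4 and TNF replicate 1, 0.15 with median-of-ratios, 0.13 with upper-quartile and 0.02 with equal-sum scaling, 0.05 under quantile normalization), Rpgr (−0.02 with the block, −1.15 with HBC marker scaling), Tctn2 (0.01 with median-of-ratios scaling), Tctn1 (−0.91 with HBC marker scaling) and Bbs1 (0.00 under quantile normalization); beyond what each setting itself changes, the cause was not tested. All 14 were differences that missed the threshold with values as deposited. Depth limits the low rows, such as Bbs10, Bbs1 and Tctn1, but cannot be put in counts.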

Other observations

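Within the TNF group, single cilium genes differed in where replicate 1, the library with the most mature neuron markers, lay beside replicates 3 and 4. Kif17 (merged with Sh2d5) was 3.95 times the mean of TNF replicates 3 and 4 there, and the lower Bbs2 row 2.57 times. Ift27 was 1.74 times, Ift43 1.65 times, Ift22 1.61 times and Ift46 1.60 times that mean. Kif3a (0.794 times), Kifap3 (0.752), Ift140 (0.683), Arl13b (0.625) and Rpgr (0.619, merged with Srpx) lay below it. TNF replicate 1 was the highest TNF library in 25 of the 43 rows, the lowest in 14 and between in 4. The same ranks were not counted over all rows of the table. These are values of 1 library beside 2 and carry no test, and the genes were chosen after their values were seen.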
